A study of Mus musculus with 12 samples.

Results

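The respiratory chain and ATP synthase genes were examined in mouse nephron progenitor cells (NPC), the Six2-expressing cells of the cap mesenchyme from which nephrons form. Members were all rows of the expression tables whose symbol began with Nduf (followed by a, b, c, s or v), Cox4 to Cox8, Uqcr, Atp5, mt-Nd, mt-Co, mt-Cytb or mt-Atp, without symbols containing -ps. Of 54184 rows, 113 matched, 9 were left out as -ps symbols and 104 were members, of which 91 are encoded in the nucleus and 13 in the mitochondrial genome. The rule reads gene names and no measured value, and the set was taken up with earlier results of these data known. One of the rows left out, Ndufb1-ps, was listed at 95.2 to 152 TPM (transcript abundance corrected for gene length and library total), and the other 8 at 0 to 3.11 TPM. Cox8a, a complex IV subunit, was not among the matching rows and so was not analysed here.

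The cells were wild-type NPC from E13.5 kidneys of CD1 mothers mated with Six2GFP+ or GFP- males, isolated by magnetic sorting and expanded for 2 to 3 passages before RNA was taken from 12 bulk cultures. The 4 groups had 3 libraries each: NPC in nephron progenitor expansion medium (NPEM control), NPC in DMEM (DMEM control), NPC in DMEM with the GSK3 inhibitor CHIR99021 at 3.5 µM (CHIR in DMEM) and NPC in DMEM with the PFKFB3 inhibitor YN1 at 20 µM (YN1 in DMEM). The CHIR and YN1 differentiation media also contained knock-out serum replacement and Fgf2, and cells were harvested after 24 h. The labels do not state the additives of the DMEM control, so the difference between NPEM and DMEM control is a difference between whole media, and the cells are cultured ones, whose makeup the markers given further on describe. The comparisons ask whether medium, CHIR or YN1 altered the transcripts of the machinery that respires.

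Complex I passes electrons from NADH to ubiquinone, complex III passes them on to cytochrome c, complex IV reduces oxygen, and the proton gradient that these complexes build drives complex V, the ATP synthase. Complexes I, III, IV and V are mosaics: a few core subunits are made inside the mitochondrion from mitochondrial DNA, and the remaining subunits are nuclear gene products imported from the cytosol. Complex II is wholly nuclear and has no member here under the name rule. Differentiation of NPC is known to be accompanied by a shift in the balance of glycolysis and respiration.

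The 91 nuclear members comprised 38 complex I genes, 8 complex I assembly factors (Ndufaf1 to Ndufaf8), 8 complex III genes, 19 complex IV genes, 16 complex V genes, Atp5s (coupling factor B) and Cox7a2l, which helps to join complexes into supercomplexes. Ndufa4 and Ndufa4l2 were placed with complex IV, where the Ndufa4 protein resides. The 13 mitochondrial members were 7 complex I genes, mt-Cytb of complex III, 3 complex IV genes and 2 complex V genes.

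The mitochondrial members lie close together on the 16299-base mitochondrial genome, and 4 neighbouring pairs share bases, which limits how far reads can be assigned to one of them. The shared bases of 3 pairs are shown in capitals with 6 flanking bases on each side, on the plus strand of build NCBIM37 (mm9), the first for mt-Atp8 and mt-Atp6 (chrM:7921-7975), the next for mt-Nd4l and mt-Nd4 (chrM:10161-10179), and the last for mt-Nd5 and mt-Nd6 (chrM:13546-13571).
mt-Atp8 and mt-Atp6: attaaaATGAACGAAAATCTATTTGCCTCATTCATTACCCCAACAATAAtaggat
mt-Nd4l and mt-Nd4: actacaATGCTAAaaatta
mt-Nd5 and mt-Nd6: actcaaTTAATCTCGAGTAAtctcga
The overlaps measured 43, 7 and 14 bases, and mt-Atp6 and mt-Co3 share 1 further base, which is not shown. The first 2 of those shown begin with the start codon of the downstream gene. mt-Nd6 is the only mitochondrial member on the minus strand, and the libraries were not strand-specific, so its reads could not be told apart from those of transcripts running the other way over the same bases.

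Promoters are shown for the 6 nuclear members that passed a test with the replicate number in the fit, so that they can be read side by side. Of these, 5 passed in DMEM control against NPEM, and Cox7a2 passed only in CHIR against DMEM control. That fit called 4.32% of all genes higher in the former comparison, and 3.36% higher and 9.44% lower in the latter. A set of this size would hold a few calls at that background, so the 6 are examples. Each run holds the 250 bases before the RefSeq transcription start, on the gene's own strand, in GRCm38.p6 (mm10). Capitals mark matches on either strand to GCATGCG (the core of the motif of NRF1, a factor known to act on respiratory genes), CCGGAAG (the ETS motif bound by GABP) or CCAAT (the box bound by NF-Y). They also mark matches to the TATA box, searched as TATAAA, and to the core of hypoxia response elements, searched as ACGTG. Matches may overlap. Ndufaf3 lies at chr9:108567437-108567686, Cox6b2 at chr7:4753095-4753344, Ndufa6 at chr15:82354292-82354541, Atp5j at chr16:84834977-84835226, Ndufs4 at chr13:114388095-114388344 and Cox7a2 at chr9:79759854-79760103, all on the minus strand.
Ndufaf3: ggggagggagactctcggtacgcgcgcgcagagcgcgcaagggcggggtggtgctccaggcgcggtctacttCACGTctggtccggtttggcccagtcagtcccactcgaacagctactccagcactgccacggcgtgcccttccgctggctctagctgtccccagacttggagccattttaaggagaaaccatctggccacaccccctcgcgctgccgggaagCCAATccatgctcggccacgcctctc
Cox6b2: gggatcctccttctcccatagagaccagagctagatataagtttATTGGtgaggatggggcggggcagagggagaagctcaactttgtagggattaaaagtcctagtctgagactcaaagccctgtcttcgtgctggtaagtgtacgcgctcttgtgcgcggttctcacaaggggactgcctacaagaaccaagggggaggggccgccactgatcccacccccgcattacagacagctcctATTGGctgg
Ndufa6: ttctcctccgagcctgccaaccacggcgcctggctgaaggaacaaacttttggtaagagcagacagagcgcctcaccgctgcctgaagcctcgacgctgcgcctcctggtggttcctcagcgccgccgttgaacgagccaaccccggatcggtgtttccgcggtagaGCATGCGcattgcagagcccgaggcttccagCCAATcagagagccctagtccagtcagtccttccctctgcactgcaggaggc
Atp5j: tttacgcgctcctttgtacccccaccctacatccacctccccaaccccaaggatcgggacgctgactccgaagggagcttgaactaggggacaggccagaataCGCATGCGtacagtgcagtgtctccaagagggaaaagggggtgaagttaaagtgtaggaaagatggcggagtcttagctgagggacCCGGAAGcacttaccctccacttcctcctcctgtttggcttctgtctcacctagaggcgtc
Ndufs4: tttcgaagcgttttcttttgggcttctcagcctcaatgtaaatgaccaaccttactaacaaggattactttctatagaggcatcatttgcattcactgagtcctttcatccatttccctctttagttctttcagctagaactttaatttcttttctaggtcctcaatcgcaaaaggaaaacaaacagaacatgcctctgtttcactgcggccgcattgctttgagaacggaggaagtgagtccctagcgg
Cox7a2: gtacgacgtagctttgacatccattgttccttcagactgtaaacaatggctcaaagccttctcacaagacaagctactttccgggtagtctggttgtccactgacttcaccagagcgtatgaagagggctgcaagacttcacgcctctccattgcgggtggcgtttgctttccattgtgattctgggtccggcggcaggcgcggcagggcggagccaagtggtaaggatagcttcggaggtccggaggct
The Ndufaf3 window held 1 CCAAT and 1 ACGTG, the Cox6b2 window 2 CCAAT, and the Ndufa6 window 1 NRF1 core and 1 CCAAT. The Atp5j window held 1 ETS motif and 1 stretch that matched the NRF1 core on both strands, counted as 2 overlapping matches. The Ndufs4 and Cox7a2 windows held none of the 5 motifs, nor did the window at a second start of Atp5j. The 6 members therefore shared no motif of the 5. RefSeq windows were found for 69 of the 104 members (74 windows). The NRF1 core occurred in 12.2% of the member windows and 3.02% of all 32851 windows, and the ETS letters in 17.6% and 6.91%. CCAAT occurred in 40.5% against 33.8%, ACGTG in 18.9% against 16.6%, and TATAAA in 9.46% against 12.4%. These shares describe letters and not binding.

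TPM is a share of each library's transcripts per unit length, so levels can be compared between genes but depth is not known. The TPM in each library summed to between 969477 and 973162. Nephron progenitor markers (11 of 11 in the tables, none under 1 TPM in every library) summed to 721 to 1061 TPM in NPEM, 666 to 939 TPM in DMEM control, 311 to 722 TPM in CHIR and 490 to 931 TPM in YN1. Smooth muscle markers (4 of 5 in the tables, Myocd under 1 TPM throughout) summed to 46.4 to 105 TPM in NPEM, 481 to 1672 TPM in DMEM control, 807 to 2735 TPM in CHIR and 531 to 2983 TPM in YN1. Stroma markers (8 of 8) summed to 638 to 2047 TPM in NPEM and 807 to 3603 TPM in the other groups, most of it Col1a1 and Col3a1. By single gene, mean log2(TPM + 1) lay above that of NPEM for 8 of 8 tested in DMEM control. It did so for 4 of 7 in CHIR and 7 of 8 in YN1. The shares of all genes were 60.3%, 41.2% and 60.6%. Endothelial markers (5 of 5, with Pecam1, Cdh5 and Tek under 1 TPM throughout) summed to 98.7 to 240 TPM in the controls, 14.8 to 32.2 TPM in CHIR and 76.8 to 126 TPM in YN1, nearly all of it Emcn. Blood and immune markers (6 of 6, with 4 under 1 TPM throughout) summed to 4.98 to 12.7 TPM. The part of these cell type differences in any value below was not tested, and in bulk cultures fewer cells of a type cannot be told apart from less RNA per cell.

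The mitochondrially encoded members differed far more between libraries of one group than between groups. Their summed level in NPEM replicates 1, 2 and 3 was 16715, 26427 and 19591 TPM. The sum in the DMEM control was 33821, 16732 and 14907 TPM, in CHIR 33285, 12756 and 18335 TPM, and in YN1 34608, 23847 and 18887 TPM. Replicate 1 held the highest sum in the 3 DMEM-based groups and the lowest in NPEM, and all groups overlapped. The mean ± SD (n = 3 in each) was 20911 ± 4989 TPM in NPEM, 21820 ± 10433 TPM in DMEM control, 21459 ± 10615 TPM in CHIR and 25780 ± 8037 TPM in YN1. These 13 genes took 1.31% to 3.57% of all TPM.

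**Figure D1:**
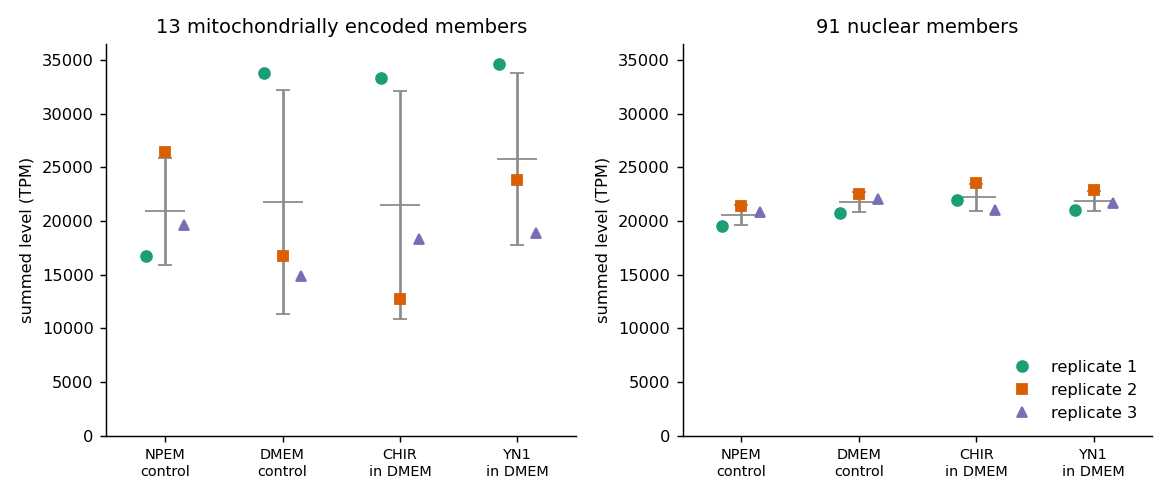
Summed level (TPM) of the 13 mitochondrially encoded and the 91 nuclear members in each library, by group; symbols give the replicate number, and grey bars the mean and SD of 3 libraries. The mitochondrial sum ranges from 12756 to 34608 TPM with replicate 1 highest in the 3 DMEM-based groups, while the nuclear sum stays between 19561 and 23593 TPM.

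Read within a replicate number, the mitochondrial sum moved in different directions. DMEM control over NPEM was 2.02 in replicate 1, 0.633 in replicate 2 and 0.761 in replicate 3. CHIR over NPEM was 1.99, 0.483 and 0.936, and YN1 over NPEM was 2.07, 0.902 and 0.964. YN1 over DMEM control was 1.02, 1.43 and 1.27, above 1 in all 3 pairs. YN1 over CHIR was 1.04, 1.87 and 1.03, likewise above 1 in all 3 pairs, and CHIR over DMEM control was 0.984, 0.762 and 1.23.

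By complex, the highest mitochondrial member was mt-Co3 for complex IV (mean of 12 libraries 3322 TPM), mt-Atp6 for complex V (3069 TPM), mt-Cytb for complex III (1920 TPM) and mt-Nd1 for complex I (1803 TPM). mt-Co3, a core subunit of cytochrome c oxidase, was at 2211, 4138 and 3209 TPM in NPEM, 4173, 3231 and 2404 TPM in DMEM control, 4049, 2402 and 2875 TPM in CHIR and 4151, 4086 and 2933 TPM in YN1. mt-Atp6, the subunit that forms the proton channel of ATP synthase, was at 2298, 3888 and 2763 TPM in NPEM, 4552, 2122 and 1940 TPM in DMEM control, 4471, 1827 and 2674 TPM in CHIR and 4699, 3301 and 2298 TPM in YN1. Both genes were highest in replicate 1 of each DMEM-based group and in replicate 2 of NPEM.

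mt-Cytb, the cytochrome b of complex III, was at 1231, 2259 and 1701 TPM in NPEM, 2882, 1408 and 1369 TPM in DMEM control, 2826, 1000 and 1542 TPM in CHIR and 3047, 1999 and 1771 TPM in YN1. mt-Nd1, which helps to form the ubiquinone site of complex I, was at 1445, 2274 and 1664 TPM in NPEM, 2502, 1333 and 1121 TPM in DMEM control, 2794, 1128 and 1472 TPM in CHIR and 2572, 1865 and 1466 TPM in YN1. The order of the libraries was that of mt-Atp6 in the 3 DMEM-based groups.

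Across the 13 genes the libraries kept much the same order. Replicate 1 was highest for 13 of 13 genes in DMEM control, 13 of 13 in CHIR and 11 of 13 in YN1, the exceptions in YN1 being mt-Nd3 and mt-Nd6. In NPEM replicate 2 was highest for 12 of 13, and replicate 1 was lowest for 9 of 13. The exception in NPEM was mt-Co2, the copper-binding subunit that takes electrons from cytochrome c, at 2148, 1704 and 1897 TPM in replicates 1, 2 and 3. mt-Co2 also had a wide range in the DMEM-based groups, at 4386, 964 and 1095 TPM in DMEM control, 4391, 910 and 1566 TPM in CHIR and 4032, 1703 and 1478 TPM in YN1. The lowest mitochondrial members were mt-Nd6 (84.5 to 208 TPM) and mt-Nd3 (81.3 to 401 TPM), both complex I subunits. mt-Nd5, mt-Nd4, mt-Nd4l, mt-Nd2, mt-Co1 and mt-Atp8 had means of 645, 1069, 1141, 1199, 2808 and 2945 TPM. The highest library exceeded the lowest by 1.89 to 4.93 times for single mitochondrial genes.

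**Figure D2:**
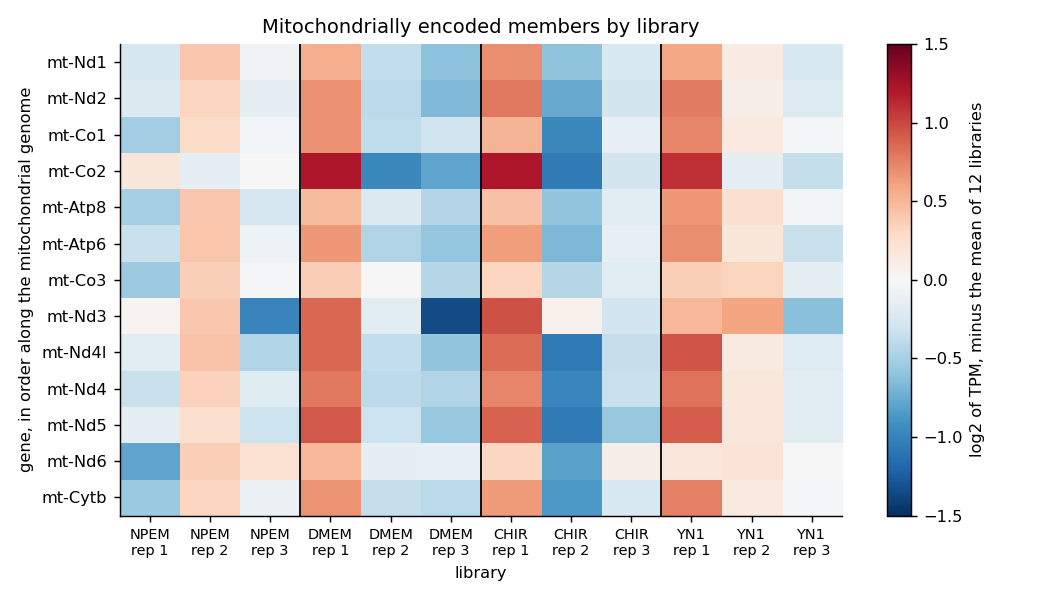
Each cell shows the log2 TPM of a mitochondrially encoded member in a library, minus the mean of that gene's log2 TPM over the 12 libraries; rows follow the order along the mitochondrial genome. Red columns mark replicate 1 of the 3 DMEM-based groups, and mt-Co2 and mt-Nd3 stand out as the rows with the widest colour range.

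No mitochondrial member passed an adjusted p of 0.05 in any of the 6 comparisons (limma on log2(TPM + 1), Benjamini-Hochberg over all genes tested). LogFC, the log2 difference of TPM + 1, had a median over the 13 genes of 0.03 for DMEM control against NPEM, -0.06 for CHIR against NPEM and 0.32 for YN1 against NPEM. Without replicate 1 of both groups the last of these was -0.07. For YN1 against DMEM control the median was 0.31 with 13 of 13 genes above 0, beside 49.8% of all genes. The median ran from 0.0622 without YN1 replicate 1 to 0.697 without DMEM control replicate 1. For YN1 against CHIR it was 0.29 with 12 of 13 genes above 0 (66.7% of all genes), from 0.0323 without replicate 2 of both groups to 0.725 without CHIR replicate 1. For CHIR against DMEM control it was -0.07, and its sign, like that of DMEM control and CHIR against NPEM, turned with a library left out. In YN1 against DMEM control no mitochondrial gene had an unadjusted p under 0.05. With the replicate number in the fit 7 of 13 did, all higher in YN1, beside 4.07% of all genes, and none passed after adjustment. These 13 genes come from few shared precursor transcripts and are not independent of each other.

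The nuclear members were steady by contrast. Their summed level in NPEM was 19561, 21369 and 20838 TPM, in DMEM control 20772, 22546 and 22040 TPM, in CHIR 21955, 23593 and 21058 TPM and in YN1 21038, 22931 and 21680 TPM. The groups overlapped, but the within-replicate ratio of DMEM control over NPEM was 1.06 in each of the 3 pairs. For CHIR over NPEM it was 1.12, 1.10 and 1.01, and for YN1 over NPEM 1.08, 1.07 and 1.04. The mitochondrial to nuclear ratio of summed TPM accordingly ran from 0.541 in CHIR replicate 2 to 1.64 in YN1 replicate 1. Against NPEM, 60.3%, 41.2% and 60.6% of all genes tested had a LogFC above 0 in DMEM control, CHIR and YN1.

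By summed level of the nuclear genes of complexes I, III, IV and V, complex I had the clearest separation of DMEM control and YN1 from NPEM. Its summed level was 6068, 6359 and 6062 TPM in NPEM, 6522, 7116 and 6958 TPM in DMEM control, 6547, 6876 and 6254 TPM in CHIR and 6575, 7264 and 6788 TPM in YN1. Every DMEM control and YN1 library lay above every NPEM library, while CHIR replicate 3 lay within the NPEM range. The within-replicate ratio of DMEM control over NPEM for complex I was 1.07, 1.12 and 1.15. For complex V the same ratio was 1.06, 1.01 and 0.998, for complex IV 1.06, 0.988 and 1.03, and for complex III 1.05, 1.10 and 1.05.

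The highest nuclear members by mean of 12 libraries were Atp5b (complex V, the catalytic beta subunit, 1132 TPM), Uqcrh (complex III, the hinge protein, 678 TPM), Cox4i1 (complex IV, 655 TPM) and Ndufab1 (complex I, the mitochondrial acyl carrier protein, 336 TPM). Among the assembly factors Ndufaf2 was highest (70.2 TPM). Atp5b was at 1000, 1062 and 1192 TPM in NPEM, 1121, 929 and 1099 TPM in DMEM control, 1352, 1218 and 1274 TPM in CHIR and 1289, 990 and 1059 TPM in YN1, so that all CHIR libraries lay above all NPEM and DMEM control libraries. Uqcrh ranged from 600 to 788 TPM, Cox4i1 from 546 to 739 TPM and Ndufab1 from 289 to 396 TPM. At a mean of at least 100 TPM stood 34 of 38 nuclear complex I genes, 8 of 8 complex III genes, 10 of 19 complex IV genes and 15 of 16 complex V genes, and none of the 8 assembly factors. Ndufb4 (28.5 to 49.7 TPM) and the near-identical copy Ndufb4c (156 to 253 TPM) may have exchanged reads and their separate levels are uncertain.

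No member passed the adjusted threshold in any comparison by the fit without the replicate number. All other values of this and the next paragraph come from that fit. With the replicate number some members passed in DMEM control against NPEM and in CHIR against DMEM control, as given below. A gene entered a test if it reached 1 TPM in at least 3 of the 6 libraries compared, which 95 to 97 of the 104 members did. The share of all genes called was 0.446% for DMEM control against NPEM, 0.378% for CHIR against NPEM, 0.23% for YN1 against NPEM, 0.252% for CHIR against DMEM control, 0% for YN1 against DMEM control and 0.00701% for YN1 against CHIR, so a set of this size would hold few or no calls at that background. The smallest adjusted p of a member was 0.0886, for Ndufaf3 in CHIR against DMEM control.

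At an unadjusted p under 0.05, 6 members were higher and 0 lower in DMEM control against NPEM, beside 10.8% and 4.8% of all genes. CHIR against NPEM had 2 higher and 0 lower (4.4% and 7.55% of all genes), and YN1 against NPEM had 8 and 0 (9.51% and 4.73%). CHIR against DMEM control had 1 higher and 3 lower (4.16% and 15.1%), YN1 against DMEM control had 0 and 0 (0.317% and 0.2%), and YN1 against CHIR had 3 and 1 (12.3% and 3.21%). Members whose libraries did not overlap between groups numbered 16 higher and 1 lower in DMEM control against NPEM (15.1% and 7.02% of all genes), 10 and 0 in CHIR against NPEM (5.66% and 11.3%) and 22 and 1 in YN1 against NPEM (14.2% and 6.99%). They numbered 5 and 6 in CHIR against DMEM control (5.75% and 20.2%), 1 and 1 in YN1 against DMEM control (1.33% and 1.21%) and 4 and 1 in YN1 against CHIR (18.3% and 4.79%).

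By median LogFC the nuclear members stood at 0.12 for DMEM control against NPEM, 0.09 for CHIR against NPEM and 0.12 for YN1 against NPEM, where all genes tested stood at 0.09, -0.06 and 0.09. In the 3 comparisons among DMEM-based groups the nuclear medians were -0.003, 0.006 and 0.001, where all genes stood at -0.15 for CHIR against DMEM control, -0.001 for YN1 against DMEM control and 0.16 for YN1 against CHIR. Quantile normalization, which sets every library to the same distribution, moved the all-gene median to between -0.015 and 0.004, and the nuclear medians against NPEM to 0.10, 0.06 and 0.10. It turned the sign of the YN1 against DMEM control median, to -0.002.

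Complex I held 10 of the 16 members that were higher with no overlap in DMEM control against NPEM. In DMEM control against NPEM, 32 of 35 tested complex I genes had a LogFC above 0 (60.3% of all genes), with a median of 0.16, and 10 of the 35 did not overlap between groups, all higher (15.1% of all genes). In YN1 against NPEM it was 32 of 35 (60.6% of all genes) with a median of 0.12 and 10 higher with no overlap (14.2%), and in CHIR against NPEM 25 of 35 (41.2%) with a median of 0.07 and 3 higher with no overlap (5.66%). Under quantile normalization the counts above 0 were 30, 27 and 21 of 35, beside 48.1%, 48.3% and 48.5% of all genes. The complex I medians in CHIR and YN1 against DMEM control were -0.06 and 0.001 (-0.07 and -0.005 under quantile normalization). The nuclear complex III, IV and V medians lay between -0.07 and 0.15 in all 6 comparisons. In CHIR against NPEM they were 0.15, 0.09 and 0.10, each above that of complex I. Above 0 were 6 of 8, 13 of 15 and 13 of 16 genes (41.2% of all genes). Against DMEM control, CHIR had 12 of 13 complex IV genes above 0 (median 0.11), and 8 of 35 of complex I. The counts were 5 of 8 for complex III and 10 of 16 for complex V. The all-gene median in that comparison lay below 0, as given above. The 8 complex I assembly factors had larger medians than complex I against NPEM, at 0.25 in DMEM control, 0.09 in CHIR and 0.34 in YN1. Under quantile normalization these were 0.12, 0.17 and 0.21, beside 0.14, 0.05 and 0.09 for complex I, so the order turned in DMEM control. In each of the 3 comparisons 2 of the 8 were higher with no overlap.

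**Figure D3:**
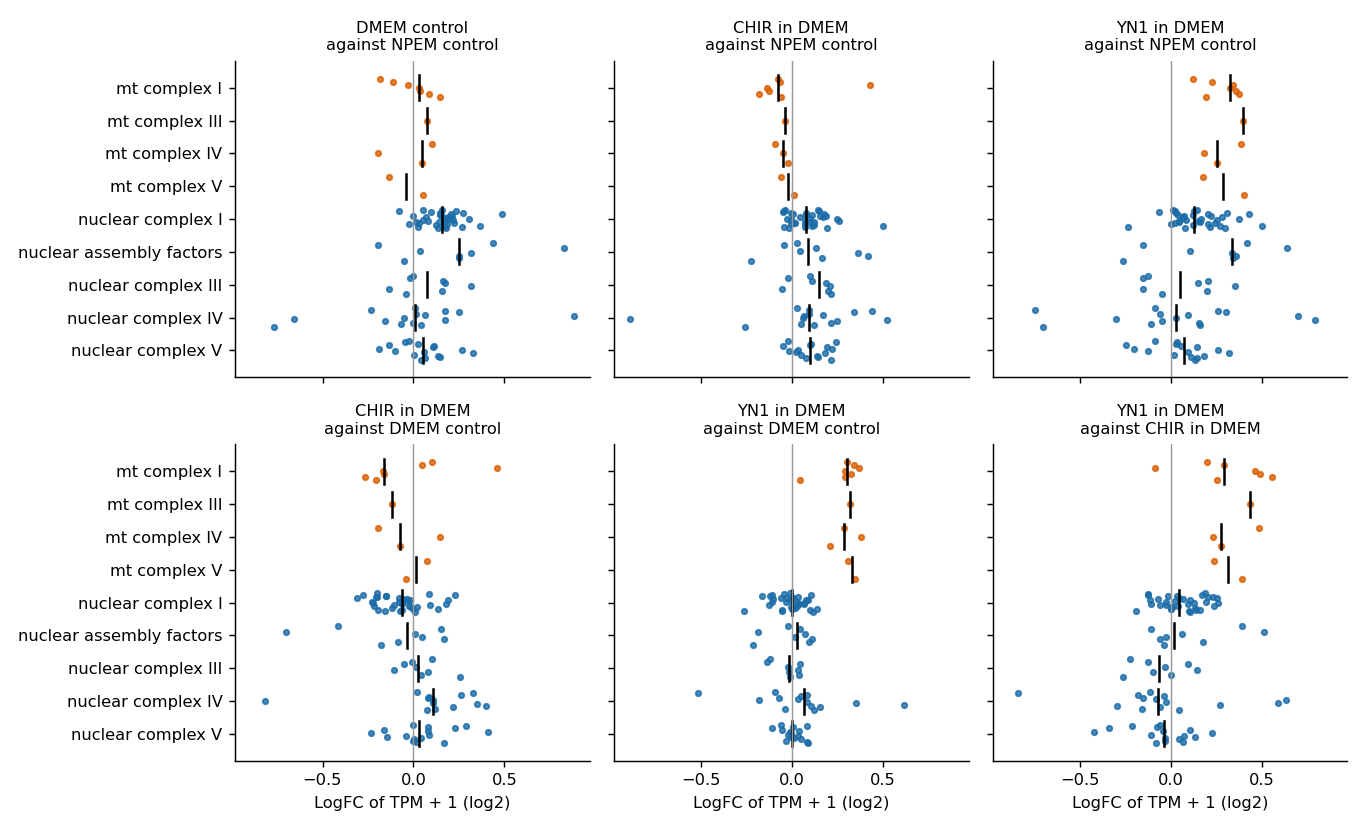
LogFC (log2 difference of TPM + 1) of each tested member in the 6 comparisons, by genome and complex; orange points are mitochondrially encoded genes, blue points nuclear genes, and black bars the median of each row. No point passes the adjusted threshold in the fit without the replicate number. The nuclear complex I medians are 0.16 and 0.12 in DMEM control and YN1 against NPEM. The mitochondrial points lie to the right in the YN1 panels, except mt-Nd3 in YN1 against CHIR.

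Ndufaf3 and Cox6b2 had the smallest p of the members in DMEM control against NPEM. Ndufaf3, an early assembly factor of complex I, was at 23, 17.1 and 19.9 TPM in NPEM, 33.6, 38.9 and 35.6 TPM in DMEM control, 22.8, 20.6 and 22 TPM in CHIR and 39.1, 23.5 and 33.9 TPM in YN1. The DMEM control libraries lay above all NPEM and all CHIR libraries, and the CHIR libraries lay within the NPEM range. The LogFC was 0.83 (SE 0.17) for DMEM control against NPEM with a limma adjusted p of 0.0926, and -0.70 (SE 0.14) for CHIR against DMEM control with an adjusted p of 0.0886. With the replicate number as a term both passed, at adjusted p of 0.0473 and 0.0354. YN1 against CHIR gave 0.51 (SE 0.21, limma adjusted p 0.322).

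Cox6b2, the complex IV subunit known as the testis form of Cox6b1, was at 63.2, 41.9 and 68.2 TPM in NPEM, 128, 86 and 106 TPM in DMEM control, 83.1, 42.4 and 58.8 TPM in CHIR and 95, 76.3 and 109 TPM in YN1. DMEM control and YN1 libraries lay above all NPEM libraries, and DMEM control lay above all CHIR libraries. The LogFC was 0.88 (SE 0.23) for DMEM control against NPEM, 0.70 (SE 0.23) for YN1 against NPEM and -0.82 (SE 0.27) for CHIR against DMEM control, with limma adjusted p of 0.146, 0.241 and 0.175. With the replicate number as a term the first and the last passed, at 0.0289 and 0.0244, and YN1 against NPEM did not (0.0653). Its partner Cox6b1 was at 440 to 599 TPM, so Cox6b2 was the minor form in every library.

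Cox20, a chaperone of the complex IV subunit mt-Co2 and no member by name, was at 78.3, 86.1 and 70.3 TPM in NPEM, 146, 139 and 134 TPM in DMEM control, 77.1, 91.4 and 68.3 TPM in CHIR and 145, 157 and 132 TPM in YN1. NPEM and CHIR libraries lay apart from DMEM control and YN1 libraries with no overlap. The LogFC was 0.83 (SE 0.12) for DMEM control against NPEM and -0.83 (SE 0.14) for CHIR against DMEM control, with limma adjusted p of 0.05005 (just above the threshold) and 0.0769, and 0.0224 and 0.0239 with the replicate number as a term. It was 0.88 (SE 0.14) for YN1 against NPEM and 0.87 (SE 0.15) for YN1 against CHIR, with limma adjusted p of 0.0704 and 0.140, and 0.0462 and 0.0315 with the replicate number. These comparisons share libraries.

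**Figure D4:**
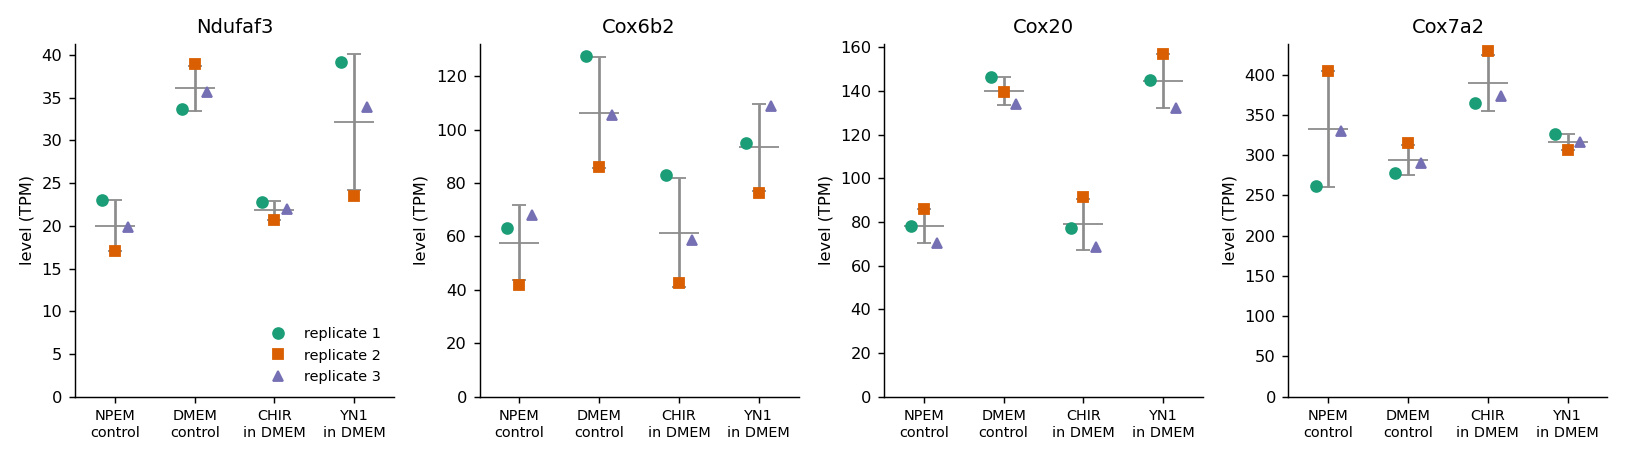
Level (TPM) of Ndufaf3, Cox6b2, Cox20 and Cox7a2 in each library by group; symbols give the replicate number, and grey bars the mean and SD of 3 libraries. Ndufaf3, Cox6b2 and Cox20 are higher in all 3 DMEM control libraries than in any NPEM or CHIR library, and Cox7a2 is higher in all 3 CHIR libraries than in any DMEM control library.

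With the replicate number as a term 5 members passed in DMEM control against NPEM, all higher, beside 4.32% of all genes called higher by that fit. Apart from Ndufaf3 and Cox6b2 they were Ndufa6, Ndufs4 and Atp5j. Ndufa6, an accessory subunit of the peripheral arm of complex I, was at 163, 191 and 195 TPM in NPEM, 210, 298 and 270 TPM in DMEM control, 191, 215 and 215 TPM in CHIR and 213, 279 and 251 TPM in YN1. The DMEM control libraries all lay above the NPEM libraries, with a LogFC of 0.49 (SE 0.16, limma adjusted p 0.229, 0.0400 with the replicate number). Ndufs4, an accessory subunit of the electron input module of complex I whose loss causes Leigh syndrome, was at 131, 165 and 135 TPM in NPEM, 164, 216 and 178 TPM in DMEM control, 198, 216 and 196 TPM in CHIR and 187, 245 and 182 TPM in YN1. All CHIR and YN1 libraries lay above all NPEM libraries, and DMEM control replicate 1 fell just inside the NPEM range. The LogFC of Ndufs4 was 0.37 for DMEM control against NPEM (limma adjusted p 0.313, 0.0477 with the replicate number), and 0.50 for both CHIR and YN1 against NPEM (limma adjusted p 0.188 and 0.246). Atp5j, the coupling factor 6 of the ATP synthase stalk, was at 415, 488 and 420 TPM in NPEM, 525, 603 and 531 TPM in DMEM control, 485, 560 and 459 TPM in CHIR and 556, 605 and 491 TPM in YN1. DMEM control lay above NPEM in all 3 libraries, with a LogFC of 0.33 (limma adjusted p 0.270, 0.0493 with the replicate number).

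The members of smallest p in CHIR against NPEM were Cox5a, Ndufs4 and Cox5b, all higher in CHIR. Cox5a, which surrounds the catalytic core of complex IV, was at 249, 250 and 267 TPM in NPEM, 313, 239 and 320 TPM in DMEM control, 368, 324 and 348 TPM in CHIR and 363, 257 and 306 TPM in YN1. All CHIR libraries lay above the libraries of both controls, with a LogFC of 0.44 against NPEM (SE 0.11, limma adjusted p 0.177). Cox5b, another nuclear subunit on the matrix side of complex IV, was at 333, 321 and 358 TPM in NPEM and 510, 373 and 409 TPM in CHIR, with a LogFC of 0.34 (SE 0.15, limma adjusted p 0.439). DMEM control libraries of Cox5b, at 410, 339 and 466 TPM, overlapped both groups. Neither gene passed with the replicate number as a term.

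Against DMEM control, CHIR had 3 members that passed with the replicate number as a term, beside 3.36% of all genes called higher and 9.44% called lower by that fit. Ndufaf3 and Cox6b2 were lower and Cox7a2 was higher. Cox7a2, the widely expressed form of a small complex IV subunit, was at 261, 405 and 330 TPM in NPEM, 278, 315 and 290 TPM in DMEM control, 365, 430 and 374 TPM in CHIR and 326, 307 and 316 TPM in YN1. CHIR libraries lay above all DMEM control and YN1 libraries and overlapped NPEM. The LogFC was 0.40 (SE 0.12) against DMEM control, with a limma adjusted p of 0.161 and 0.0360 with the replicate number. YN1 against CHIR gave -0.30 (SE 0.12, limma adjusted p 0.320). Ndufa12, an accessory subunit of complex I, and Atp5b were the next members higher in CHIR with no overlap, with LogFC of 0.23 and 0.29 (limma adjusted p 0.310 and 0.317).

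Atp5s, a coupling factor of ATP synthase, was at 16.4, 16.9 and 14.1 TPM in NPEM, 18.6, 20.2 and 20.7 TPM in DMEM control, 13.6, 10.8 and 15.7 TPM in CHIR and 17.1, 20.2 and 23.2 TPM in YN1. CHIR libraries lay below all DMEM control and YN1 libraries. The LogFC was -0.55 (SE 0.19) for CHIR against DMEM control and 0.57 (SE 0.21) for YN1 against CHIR, with limma adjusted p of 0.192 and 0.296. Ndufa3, an accessory subunit of complex I, was higher in YN1 than in CHIR by a LogFC of 0.23 (limma adjusted p 0.389). Cox7a1, the muscle form of Cox7a2, was at 0.954 to 1.34 TPM in NPEM and 2.29 to 3.41 TPM in YN1, with a LogFC of 0.79 (limma adjusted p 0.245). Uqcrfs1, the Rieske iron-sulfur protein of complex III, was the 1 member lower with no overlap in both DMEM control and YN1 against NPEM, with LogFC of -0.13 and -0.15 (limma adjusted p 0.598 and 0.609). Among nuclear members the groups with the fewest non-overlapping genes were YN1 and DMEM control: Atp5o (LogFC 0.09) and Ndufa8 (LogFC -0.11) were the 2 members that did not overlap, each with a limma adjusted p of 0.99996.

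Several subunits exist in paired forms, and for 2 pairs the low-level form differed by replicate number more than by treatment. Ndufa4l2 and Cox4i2, known as hypoxia-inducible counterparts of Ndufa4 and Cox4i1, were high in replicate 3 of all 4 groups. Ndufa4l2 was at 1.05, 0.43 and 32.6 TPM in NPEM, 0.539, 0.443 and 7.93 TPM in DMEM control, 0.582, 0.606 and 21.5 TPM in CHIR and 0.491, 0.595 and 8.55 TPM in YN1. Cox4i2 was at 5.47, 1.56 and 42.9 TPM in NPEM, 5.13, 3.19 and 16.5 TPM in DMEM control, 3.69, 5.39 and 28.5 TPM in CHIR and 1.38, 3.27 and 14.2 TPM in YN1. Replicate 3 lay above replicates 1 and 2 of its group in every case, and within replicate 3 the order of the groups was NPEM, CHIR and then the other two for both genes. Ndufa4 (410 to 643 TPM) and Cox4i1 (546 to 739 TPM) stood far higher and were highest in replicate 3 of no group.

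**Figure D5:**
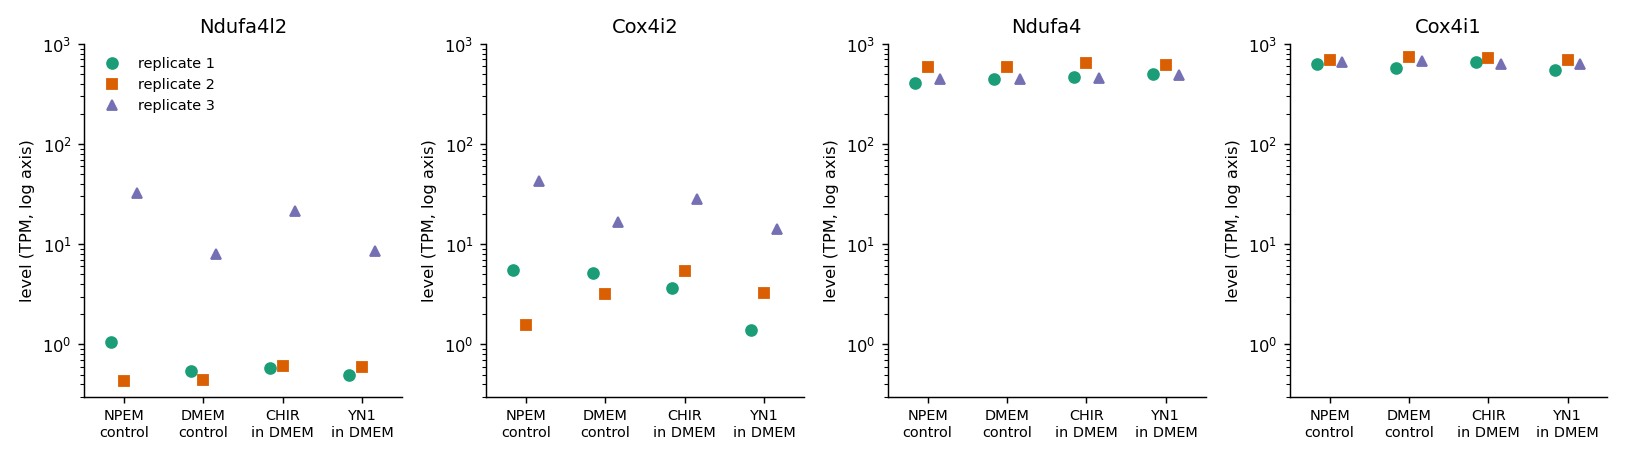
Level (TPM, log axis) of Ndufa4l2, Cox4i2, Ndufa4 and Cox4i1 in each library by group; symbols give the replicate number. Replicate 3 of each group stands above its other libraries for Ndufa4l2 (7.93 to 32.6 TPM) and Cox4i2 (14.2 to 42.9 TPM), and not for Ndufa4 or Cox4i1.

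Some other transcripts were also highest in replicate 3. Of 9 hypoxia-responsive genes listed after the values were seen, replicate 3 was highest for 9 in NPEM, 5 in DMEM control, 6 in CHIR and 8 in YN1. The share of all genes highest in replicate 3 of each group is not given, so these counts only describe the list. Pdk1, which diverts pyruvate from the mitochondrion, was at 25.2, 22.1 and 48.7 TPM in NPEM and 14.2, 24.9 and 63.9 TPM in CHIR. It was at 10.7, 16.4 and 20.6 TPM in DMEM control and 5.93, 17.7 and 23.7 TPM in YN1. Adm went the other way in DMEM control (21.0, 4.72 and 4.61 TPM) and YN1 (15.8, 5.33 and 5.19 TPM). The ureteric bud marker list (7 of 7) summed to 132 to 170 TPM in replicate 3 and to 27.8 to 72.2 TPM in the other libraries, through Krt8, Krt18 and Cdh1. Its other members did not all follow. Wnt11 was highest in replicate 1 of every group, and Ret in replicate 1 of the DMEM-based groups. Gata3 was highest in replicate 1, and Hoxb7 in replicate 3, of every group except YN1. Whether these go with Ndufa4l2 and Cox4i2 through one cause was not tested.

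The remaining paired forms were unequal throughout. Cox6a1 was at 307 to 448 TPM and its muscle form Cox6a2 at 0 to 1.11 TPM. Cox7a2 (261 to 430 TPM) and Cox7b (175 to 328 TPM) exceeded Cox7a1 (0.538 to 3.41 TPM) and Cox7b2 (0 to 0.228 TPM). Cox8b, a muscle form, was above 0 only in NPEM replicate 1 (0.454 TPM) and CHIR replicate 1 (0.422 TPM), and Cox8c was listed above 0 in NPEM replicate 1 alone (0.152 TPM). Skeletal and cardiac muscle markers (6 of 6, Ckm under 1 TPM throughout) summed to 94.9 to 214 TPM in replicate 1 of each group and to 2.73 to 27.3 TPM elsewhere, and their part in these values was not tested. The 3 genes for the identical mature c subunit of ATP synthase differed in level, with Atp5g3 at 682 to 900 TPM, Atp5g1 at 137 to 344 TPM and Atp5g2 at 24.2 to 52.9 TPM. Atp5g1 was highest in replicate 3 of each group, at 344, 294, 336 and 303 TPM in NPEM, DMEM control, CHIR and YN1, where replicates 1 and 2 lay between 137 and 223 TPM.

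The replicate number accounted for more of the spread of the nuclear members than the group did. Of a member's variation in log2(TPM + 1) over the 12 libraries, the median share between groups was 25.3% and between replicate numbers 51.2% for nuclear members, against 33.8% and 35.9% for all 15680 genes. For mitochondrial members the shares were 8.67% and 41.8%. The same replicate number was highest in all 4 groups for 41 of 85 nuclear members (48.2%, beside 31.6% of all genes). In 21 of these 41 it was replicate 2, in 11 replicate 1 and in 9 replicate 3. For mitochondrial members it was 1 of 13, mt-Co2. Atp5e, the epsilon subunit of ATP synthase, was highest in replicate 2 of each group (525 to 564 TPM against 323 to 454 TPM). Atp5d, the delta subunit, was lowest in replicate 1 of each group (213 to 308 TPM against 317 to 437 TPM).

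Among genes that build, feed or regulate the chain, none passed the adjusted threshold in any comparison by the fit without the replicate number. Of 9 complex II and electron carrier genes in CHIR against DMEM control, 3 were lower at an unadjusted p under 0.05 (15.1% of all genes), with a median LogFC of -0.16 where all genes stood at -0.15. They were Etfa, Etfb and Etfdh, which carry electrons from fatty acid oxidation to ubiquinone, with LogFC of -0.47, -0.73 and -0.45 (limma adjusted p 0.137, 0.101 and 0.182). With the replicate number as a term Etfa and Etfb passed as lower and Cycs, cytochrome c itself, as higher (LogFC 0.47), with adjusted p of 0.0428, 0.0285 and 0.0489. That fit called 9.44% of all genes lower and 3.36% higher in this comparison. Of 22 complex IV assembly genes (21 tested), 2 lay higher with an unadjusted p under 0.05 and 4 lay lower in the same comparison, beside 4.16% and 15.1% of all genes. Cox17, a copper chaperone, had a LogFC of 0.51 and Cox20 of -0.83, and both passed with the replicate number as a term (0.0428 and 0.0239). These were 1 higher and 1 lower of 21, beside 3.36% and 9.44% of all genes. Of 10 complex I assembly genes named without the Ndufa prefix (9 tested) 3 were lower at an unadjusted p under 0.05 (15.1% of all genes). Tmem126b had a LogFC of -0.71 and Dmac1 of -0.57 (limma adjusted p 0.123 and 0.151), and both passed with the replicate number (0.0378 and 0.0374). They were 2 of 9, beside 9.44% of all genes called lower by that fit.

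Of 24 genes for mitochondrial transcription and RNA stability (23 tested), 1 lay higher with an unadjusted p under 0.05 and 1 lay lower in CHIR against DMEM control, beside 4.16% and 15.1% of all genes. Lrpprc, which stabilises mitochondrial mRNA, had a LogFC of 0.54 and Mterf2, a mitochondrial termination factor family member, of -1.25 (limma adjusted p 0.137 and 0.0993, and 0.0372 and 0.0249 with the replicate number). With the replicate number 1 of 23 was thus called higher and 1 lower, beside 3.36% and 9.44% of all genes. The 13 mitochondrial mRNAs had a median LogFC of -0.07 in that comparison. The 10 nuclear regulators of respiratory genes (9 or 10 tested) include Ppargc1a, Nrf1 and Gabpa. Against NPEM, 0 of them differed at an unadjusted p under 0.05 in the 3 comparisons. Of all genes 10.8% were higher and 4.8% lower in DMEM control, 4.4% and 7.55% in CHIR, and 9.51% and 4.73% in YN1. At that background a list of this size would hold few or none. With the replicate number Yy1 was higher and Pprc1 lower in DMEM control at that threshold, and neither passed after adjustment. The list medians were -0.12, -0.12 and -0.15, where the nuclear members stood at 0.12, 0.09 and 0.12 and all genes at 0.09, -0.06 and 0.09. The difference between these medians was not tested. Pprc1, a coactivator of the Ppargc1a family, passed with the replicate number in CHIR against DMEM control (LogFC 0.55, adjusted p 0.0375), although its libraries overlapped. It was 1 of 9 regulators tested there, beside 3.36% of all genes called higher by that fit. In DMEM control against NPEM the complex II and electron carrier list had 2 of 9 genes higher at an unadjusted p under 0.05 (10.8% of all genes) with a median of 0.01, and the complex III and ATP synthase assembly lists had 0 higher or lower, with medians of 0.25 and 0.16, where all genes stood at 0.09.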

How the data were processed

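Total RNA was selected for poly-A tails and sequenced without strand information on an Illumina HiSeq. The submitters' processing notes name FastQC, STAR, RSEM and builds mm9 and mm10, with no version. The authors deposited TPM per gene for each library in 3 tables, each with the NPEM libraries, whose values were identical in all 3, and beside them their own fold changes and p-values, which were not used. TPM keeps no depth, so no counting interval was computed, and poly-A selection and transcripts shared between overlapping mitochondrial genes bear on the mitochondrial levels.

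Values were tested with limma 3.58.1 (trend) in R 4.3.3 on log2(TPM + 1), over the 6 libraries of each comparison, for genes of at least 1 TPM in at least 3 libraries, with Benjamini-Hochberg adjustment over all genes. The fit was also run on simulated data, and the outcome is not given here. The same-numbered libraries deviated together (correlation 0.356 to 0.697 in 18 pairs over 14617 genes, against -0.459 to -0.0752 in 36 differently numbered pairs), and the study gives 3 independent NPC preparations, so fits with the replicate number are given where they change the call of a member or a related respiratory gene. The numbers come from the sample titles. The members and gene lists were chosen with earlier results of these data known. Named were all mitochondrial members, the highest member of each complex, the 3 members with the smallest p in each direction and no overlap, members passing the threshold, the paired isoforms and the leading genes of the related lists. Ndufb4, Ndufb4c, Ndufab1, Atp5e, Atp5d, Cox20 as a plotted gene, Ndufs4 and Atp5j in the replicate fit, and the hypoxia genes were chosen after their values were seen. Promoters and gene positions came from RefSeq (GRCm38.p6). Alternatives were quantile normalization, scaling without mitochondrial transcripts, a pseudocount of 0.1, no filter, a filter on means under 5 TPM, one fit over the 4 groups, no trend and leaving out each library. Leaving out one replicate number from both groups was added after seeing the data.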

Additional observations from a re-analysis of the deposited data

How the results depend on the processing

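No member was called in any comparison by the fit as reported, nor when any library was left out (0 in every case). With the replicate number as a block, 5 members were called in DMEM control against NPEM and 3 in CHIR against DMEM control. That fit called 4.32% of all genes higher in the former comparison, and 3.36% higher and 9.44% lower in the latter. The block changed no other count of called members. The block moved Ndufaf3, Cox6b2 and Ndufa6 (LogFC 0.83, 0.88 and 0.49) past the threshold in DMEM control against NPEM, and Cox7a2, Ndufaf3 and Cox6b2 (0.40, -0.70 and -0.82) in CHIR against DMEM control. No value of a called direction turned. The median LogFC of the mitochondrially encoded genes in YN1 against NPEM was -0.07 without replicate 1 of both groups, an alternative added after seeing the data, and between -0.074 and 0.54 with a library or replicate number left out. The same range was -0.465 to 0.388 for DMEM control against NPEM, -0.601 to 0.456 for CHIR against NPEM and -0.431 to 0.237 for CHIR against DMEM control, so their sign rested on single libraries. It was 0.0622 to 0.697 for YN1 against DMEM control and 0.0323 to 0.725 for YN1 against CHIR. The nuclear medians ranged from 0.0827 to 0.131 for DMEM control against NPEM, 0.0541 to 0.141 for CHIR against NPEM and 0.0876 to 0.149 for YN1 against NPEM. Over all genes, quantile normalization changed the split of calls from 49 higher and 15 lower to 49 and 32 in DMEM control against NPEM, and from 5 and 31 to 1 and 1 in CHIR against DMEM control. The cause was not tested. Depth is not known from TPM.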
